A study of Mus musculus with 18 samples.

Results

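The genes described here are 33 mouse genes of glycolysis, lactate transport and the response to low oxygen, followed in oligodendrocyte progenitor cells (OPCs) with and without Thap1 and during their differentiation. They were chosen by name from the deposited table, and the protein-coding transcripts of each name were summed. They are 33 of 22305 protein-coding genes, and 30 of them reached a mean of 1 rescaled TPM over all libraries and were tested among 10400 genes. The lactate exporter Slc16a3, the pyruvate dehydrogenase kinase Pdk4 and the oxygen sensor Egln3 did not, with means of 0.188, 0.0833 and 0.519 rescaled TPM.

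Glycolysis takes glucose in through transporters of the Slc2a family, traps it by phosphorylation, and converts it through a chain of cytosolic enzymes to pyruvate. Pyruvate either becomes lactate through lactate dehydrogenase, leaving the cell through monocarboxylate transporters of the Slc16a family, or enters the mitochondrion and is oxidised by pyruvate dehydrogenase, which the Pdk kinases switch off. The transcription factor subunit HIF-1α, encoded by Hif1a, is degraded in the presence of oxygen after hydroxylation by the Egln enzymes, and when stable it induces many glycolytic genes. Oligodendrocytes are known for high glucose use while they make myelin and for supplying lactate to axons through the transporter encoded by Slc16a1.

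RNA was sequenced from clonal OPC lines derived from primary mouse neural stem cells. The control genotype was represented by clones D7, D3 and E8, and the Thap1 null genotype by clones 3F, D6 and 7F. The THAP1 protein binds DNA through a zinc finger and regulates transcription. For each clone there was an OPC library (day 0, growth medium containing PDGF-AA) and a library at day 2 (DIV2) and day 4 (DIV4) of differentiation, for which the medium held the thyroid hormone T3. This gave 6 groups of 3 libraries, 1 library per clone and stage. How the null clones were made, and whether the clones of a genotype came from 1 animal, is not given in the labels, so p-values measure the spread between these clones. In bulk RNA, fewer cells of a type and less RNA per cell cannot be told apart. The deposited TPM keeps no sequencing depth, so depth is unknown and no counting interval is given.

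Coding transcripts of Thap1 lay between 1.93 and 4.38 rescaled TPM in the 9 control libraries and between 0.196 and 0.772 in the 9 null libraries, in the order the labels give. Protein-coding transcripts held only 5.05% to 9.003% of the deposited TPM in control OPCs but 19.1% to 38.8% in the other 15 libraries. Levels here were therefore rescaled by median-of-ratios factors over protein-coding genes, which are called rescaled TPM. On the deposited scale the median change of all genes was 1.49 (log2) for null against control OPCs, -0.16 at DIV2, -0.15 at DIV4, 1.99 for control DIV2 against OPC and 0.36 for the same step in null clones. With protein-coding transcripts scaled to a fixed sum, these medians were 0.41, -0.06, 0.09, 0.62 and 0.18. The summed oligodendrocyte markers lay between 189 and 1026 rescaled TPM in OPC libraries and between 2500 and 13046 at DIV2 and DIV4. The summed microglia markers did not exceed 13.8, and those of endothelial and mural cells did not exceed 1.74. Of the astrocyte markers, Gja1 did not exceed 0.101, but Gfap was 78.4 to 234 in 5 of the 6 DIV4 libraries and Slc1a3 reached 72.0. A pair of control libraries stood apart. Control D3 OPCs had a cell-cycle sum of 87.4, against 752 to 965 in the other 5 OPC libraries. Control D7 at DIV4 had an oligodendrocyte sum of 13046, against 2698 and 2976 in the other controls, and an astrocyte sum of 84.6, against 305 and 442.

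The 250 bases upstream of the RefSeq start (GRCm38.p6) are printed for 4 members named in the results, all of which hold the sequence marked. Capitals mark the core of the hypoxia response element, ACGTG or GCGTG, on either strand, so the reverse complements CACGT and CACGC are also in capitals. Each sequence is given 5′ to 3′ on the gene's strand.
Slc2a1 (chr4:119108495-119108744, plus strand): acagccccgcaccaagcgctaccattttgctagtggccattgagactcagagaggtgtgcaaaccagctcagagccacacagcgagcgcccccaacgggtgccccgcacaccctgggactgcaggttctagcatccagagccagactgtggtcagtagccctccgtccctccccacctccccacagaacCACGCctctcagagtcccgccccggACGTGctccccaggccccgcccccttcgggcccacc
Pfkl (chr10:78009808-78010057, minus strand): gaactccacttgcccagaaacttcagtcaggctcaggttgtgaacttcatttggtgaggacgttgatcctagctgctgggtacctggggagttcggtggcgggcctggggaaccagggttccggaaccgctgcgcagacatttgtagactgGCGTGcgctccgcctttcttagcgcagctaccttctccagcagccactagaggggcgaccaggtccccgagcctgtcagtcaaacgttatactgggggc
Pgk1 (chrX:106186850-106187099, plus strand): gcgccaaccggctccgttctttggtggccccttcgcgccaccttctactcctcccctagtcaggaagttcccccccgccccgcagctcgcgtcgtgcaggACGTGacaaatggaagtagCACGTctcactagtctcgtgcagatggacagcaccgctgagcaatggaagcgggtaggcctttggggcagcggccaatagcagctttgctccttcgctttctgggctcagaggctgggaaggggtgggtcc
Bnip3 (chr7:138909507-138909756, minus strand): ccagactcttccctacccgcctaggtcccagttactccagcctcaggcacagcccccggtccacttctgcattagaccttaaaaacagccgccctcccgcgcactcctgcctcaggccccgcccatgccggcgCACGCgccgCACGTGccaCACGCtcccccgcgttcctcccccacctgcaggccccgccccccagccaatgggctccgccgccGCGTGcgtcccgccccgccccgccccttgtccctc
Slc2a1 had the core 61 and 36 bases before its start, Pgk1 at 150 and 131 bases, and Pfkl once, at 99 bases. Bnip3 had 5 matches, some of them overlapping. Of the 33 members, 32 had an entry in the RefSeq promoter table, and 29 of these (90.6%) held either form of the core in the 250 bases before a start. The share was 41.5% of the 27025 genes in that table and 64.3% of the 7817 tested genes with an entry. Gpi1, Tpi1 and Eno2 held neither form, and Tpi1 and Eno2 were called between genotypes. The THAP1 consensus TNNNGGCA, searched on both strands, was in 14 of the 32 members (43.8%), against 39.8% of all genes and 37.4% of tested genes. A match is a string of letters and says nothing about binding.

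TPM is corrected for transcript length, so levels of different genes can be set beside each other. Enzymes of lower glycolysis were the most abundant members. Pkm, pyruvate kinase, had the highest mean over the 18 libraries (150.8 rescaled TPM), followed by Pgk1, phosphoglycerate kinase (137), Gapdh (107), Aldoa, aldolase A (97.1), and Eno1, enolase 1 (66.5). Near-identical copies, not counted here, held a mean of 42.1% of the TPM of Eno1 and its copies. The rank of Eno1 is therefore uncertain. Hif1a had a mean of 36.1, close to the enzymes Gpi1 (35.8) and Tpi1 (34.9). The transporters and the kinase genes of pyruvate dehydrogenase were lower, with means of 6.13 for Slc2a1 (the glucose transporter GLUT1), 6.76 for Slc16a1 (the lactate transporter MCT1) and 1.32 for Pdk1. Summed over the 33 members, levels ranged from 822 to 1182 rescaled TPM in control OPCs, 1198 to 1245 in null OPCs, 906 to 1121 in control DIV2, 809 to 989 in null DIV2, 848 to 1187 in control DIV4 and 822 to 903 in null DIV4. Control and null groups overlapped in this sum at DIV2 and DIV4 and did not overlap in OPCs.

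**Figure D1:**
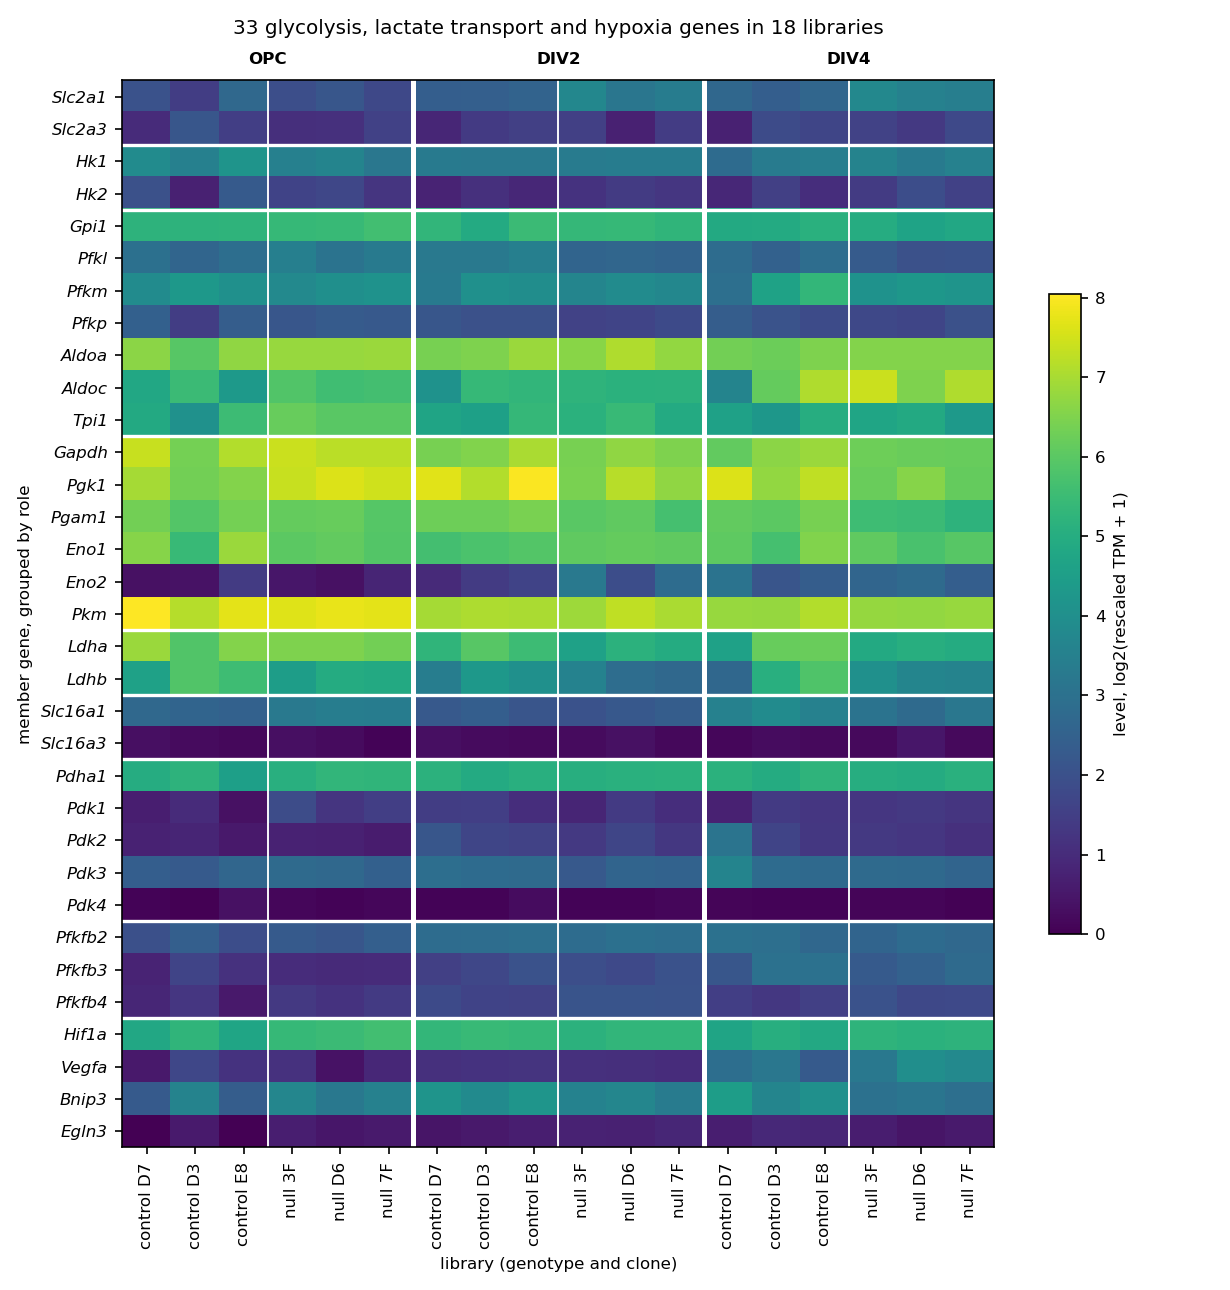
Levels of the 33 members (rows, grouped by role) in the 18 libraries (columns, by stage, genotype and clone), as log2(rescaled TPM + 1). Pkm and Pgk1 have the highest means, Eno2 is the lowest of the lower-glycolysis genes, and Slc16a3, Pdk4 and Egln3 stay near 0 in all libraries.

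Few of these genes were called between genotypes, and Slc2a1, Pfkl and Slc16a1 were called at more than 1 stage. In OPCs, 5 of the 30 tested members were higher in null clones: Tpi1 and Pgk1 (glycolytic enzymes), Slc16a1, Pdk1 and Hif1a. Among all genes tested 5.92% were called higher. No member was called lower in null OPCs by limma, where the background was 5.95% (1 member was lower at an unadjusted p under 0.05). At DIV2, Slc2a1 and Eno2 (neuronal enolase) were higher and Pfkl (liver-type phosphofructokinase) was lower, 2 and 1 of 30 members against backgrounds of 1.93% and 1.25%. At DIV4, Slc2a1 was higher, and Pfkl, Pgam1 (phosphoglycerate mutase), Slc16a1 and Bnip3 (a mitophagy receptor induced by hypoxia) were lower, 1 and 4 of 30 members against backgrounds of 3.14% and 2.35%. Some lineage markers moved with genotype too. Of 15 tested oligodendrocyte markers, 1 was lower in null OPCs, 1 at DIV2 and 2 at DIV4; Trf (transferrin) was lower at all 3 stages (log2 change -1.91, -4.08 and -3.79, limma adjusted p = 0.0263, 0.000268 and 0.000526). Of 9 tested OPC markers, Cspg4 was lower in null OPCs (-1.37, limma adjusted p = 0.0282) and Olig1 at DIV4 (-1.69, adjusted p = 0.0122). The summed OPC markers were 640 to 948 rescaled TPM in control and 487 to 596 in null OPCs, and 382 to 505 in control and 302 to 314 in null DIV4, without overlap. Olig1 held much of both differences, at 220, 489 and 261 in control and 187, 232 and 156 in null OPCs. At DIV4 Olig1 was 140, 209 and 205 in control and 44.7, 69.3 and 55.9 in null clones. Log2 changes of the other tested OPC markers ran from -1.37 (Cspg4) to 0.44 (Ptprz1) in OPCs and from -1.17 (Pdgfra) to 0.92 (C1ql1) at DIV4. The part of these markers in the members' results was not tested. The median log2 change over the 30 members was 0.16 in OPCs, -0.02 at DIV2 and -0.13 at DIV4, beside 0.04, -0.01 and -0.01 over all genes.

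**Figure D2:**
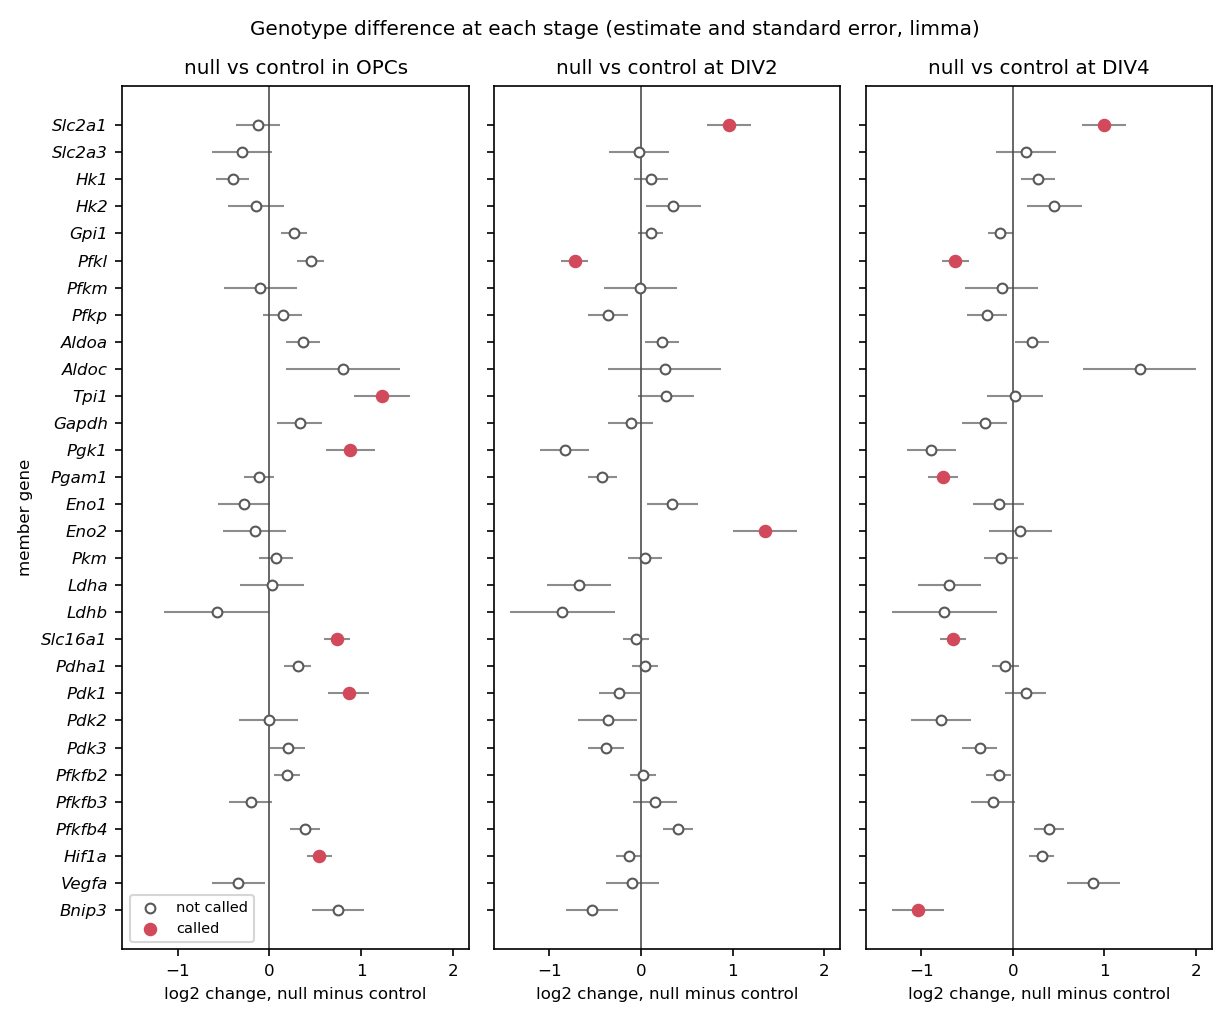
Log2 change between null and control clones at each stage for the 30 tested members, with the standard error of the limma fit; filled points were called at an adjusted p under 0.05. Among called members the largest changes are Tpi1 in OPCs (1.23), Eno2 at DIV2 (1.35) and Bnip3 at DIV4 (-1.03); Aldoc at DIV4 is larger (1.39) and not called.

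The split between higher and lower calls depended on the scale. In OPCs the deposited TPM gave 24 members higher and 0 lower (9367 and 22 of all genes), and protein-coding scaling gave 13 and 0 (2610 and 186 of all genes). At DIV4 these scales gave 0 and 0 members on the deposited TPM and 1 and 0 with protein-coding scaling. The median change of all genes there was -0.15 and 0.09, and these counts are not read as a result about the members. On the deposited TPM none of the 5 DIV4 calls was kept (limma adjusted p from 0.0796 to 0.264), and at DIV2 only Eno2 was (0.0331). With protein-coding scaling the DIV4 calls of Pfkl, Pgam1, Slc16a1 and Bnip3 were lost (limma adjusted p = 0.0873, 0.0517, 0.161 and 0.114), and with only the 6 DIV4 libraries so were they (0.122, 0.0868, 0.117 and 0.0803). In a fit on only the 6 OPC libraries none of the 5 OPC calls was kept, with limma adjusted p from 0.102 to 0.219.

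More members were called between OPC and DIV2, a step with many calls over all genes. In control clones 8 of 30 members rose and 2 fell, against backgrounds of 21.3% and 18.7%. Bnip3, Pdk2, Pgk1, Pfkfb2, Pfkfb4, Pdk1, Pfkl and Hif1a rose, and Hk1 and Pkm fell. In null clones 5 rose (Eno2, Slc2a1, Pfkfb3, Pfkfb4 and Pfkfb2) and 7 fell (Ldhb, Ldha, Slc16a1, Tpi1, Gapdh, Pfkl and Pkm), against 17.7% and 15.6%. With clone as a replicate block (for stage steps and interactions, a fixed term for each clone), Pdk2 was also called higher in this null step (0.73, limma adjusted p = 0.0407). Pfkp was called lower there (-0.56, limma adjusted p = 0.0380), beside Pgk1. On the deposited TPM the same step gave 29 higher and 0 lower in control and 6 and 0 in null clones, and with protein-coding scaling 18 and 0 and 6 and 3. The median of all genes moved by 1.99 in control and 0.36 in null clones on the deposited TPM, and by 0.62 and 0.18 with protein-coding scaling. The numbers of all genes called in the control step on these scales are given below with the processing alternatives. The null counts stand without such a number, and none of these counts is read as a result about the members. None of the 7 falls in null clones was called on the deposited TPM (limma adjusted p from 0.0853 to 0.714), although relative to the median of all genes the changes were close to the rescaled ones: -1.48 and -1.55 for Ldha, -1.68 and -1.72 for Ldhb, and -1.16 on both scales for Slc16a1. From DIV2 to DIV4, Slc16a1 and Vegfa (vascular endothelial growth factor A, a HIF target) rose in both genotypes, 2 of 30 members in each, against 0.173% in control and 1.62% in null clones. No member was called lower in either genotype by limma (2 in control and 3 in null clones at an unadjusted p under 0.05), where the backgrounds were 0.0769% and 1.25%. With clone as a replicate block, 5 members were called from DIV2 to DIV4 in null clones, the added ones being Pgam1, Pfkl and Gpi1 (limma adjusted p = 0.0247, 0.0353 and 0.0443), all lower. More genes were called over the whole set in that fit too, as given below with the processing alternatives.

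The change from OPC to DIV2 was compared between genotypes by an interaction, the null change minus the control change. Pfkl was called, with a lower value in null clones, 1 of 30 members against a background of 0.0769%. None was called higher by limma, where the background was 0.202% (2 members at an unadjusted p under 0.05). With clone as a replicate block 2 members were called, Pfkl and Pgk1. The number of all genes called in that fit is given below with the processing alternatives. For DIV4 against DIV2 no member was called in either direction by limma, with a background of 0% both ways (2 members higher and 2 lower at an unadjusted p under 0.05). Over all genes that interaction gave 0 calls and 537 genes at an unadjusted p under 0.05.

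Slc2a1 encodes GLUT1, which carries glucose across the plasma membrane. In OPCs its level was 3.09, 1.73 and 5.58 rescaled TPM in control D7, D3 and E8 and 2.80, 3.43 and 2.36 in null 3F, D6 and 7F. At DIV2 it was 4.24, 4.45 and 4.88 in the control clones and 12.2, 7.91 and 9.51 in the null clones. At DIV4 it was 5.38, 4.33 and 5.35 against 12.6, 10.5 and 9.93. The genotypes overlapped in OPCs, and every null library lay above every control library at DIV2 and DIV4. The mean was 2.18-fold higher in null clones at DIV2 (log2 change 0.96 ± 0.24 SE, limma adjusted p = 0.0400) and 2.19-fold higher at DIV4 (0.995 ± 0.24, adjusted p = 0.0266). Within null clones Slc2a1 rose 3.44-fold from OPC to DIV2 (log2 change 1.48 ± 0.24, limma adjusted p = 0.000345). The genotype difference was not called at DIV2 without control D7 (adjusted p = 0.0835), null 3F (0.330), D6 (0.0585) or 7F (0.227), nor at DIV4 without null 3F (0.164), D6 (0.0750) or 7F (0.137). The DIV2 call was also lost with a pseudocount of 0.1 (0.0653), no filter (0.0761), all transcripts of the gene (0.0621) and quantile normalization (0.0512). On the deposited TPM it was not called at either stage (limma adjusted p = 0.175 and 0.102).

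The neuronal-type transporter Slc2a3 (GLUT3) was low, between 0.668 and 3.47 rescaled TPM, and was not called in any comparison. Hexokinases phosphorylate glucose on entry. Hk1, the more abundant of the pair listed, measured 13.8, 10.3 and 17.1 rescaled TPM in control OPCs (D7, D3, E8) and 10.4, 11.5 and 8.17 in null OPCs (3F, D6, 7F). Its DIV2 levels were 9.003, 8.65 and 8.45 in control and 9.30, 9.48 and 9.49 in null clones, and its DIV4 levels were 6.03, 9.11 and 9.87 in control and 11.01, 8.90 and 10.6 in null clones. All control DIV2 values lay below all control OPC values. In control clones Hk1 fell from OPC to DIV2 on the rescaled values (log2 change -0.58 ± 0.18, limma adjusted p = 0.0213), while the value itself was 1.80 on the deposited TPM and 0.04 with protein-coding scaling, scales on which the median of all genes moved too. Relative to that median Hk1 was lower on both, at -0.19 and -0.57. The fall was not called without control E8 (adjusted p = 0.169). Hk2, an inducible hexokinase, lay between 0.664 and 3.89 and was not called.

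Phosphofructokinase commits sugar to glycolysis, and Pfkl is its liver-type subunit. Pfkl measured 6.78, 5.13 and 6.56 rescaled TPM in control OPCs and 10.1, 7.46 and 8.74 in null OPCs. Its DIV2 levels were 8.47, 8.63 and 10.21 in control and 5.03, 5.31 and 4.95 in null clones. At DIV4 it was 6.20, 4.60 and 6.30 in control and 3.96, 2.95 and 3.10 in null clones. The genotypes did not overlap at any stage, with null clones above control clones in OPCs and below them at DIV2 and DIV4. The OPC difference was not called (log2 change 0.45 ± 0.15, limma adjusted p = 0.0597). The null mean was lower by 0.72 ± 0.15 on the log2 scale at DIV2 (adjusted p = 0.0126), a 1.79-fold difference, and by 0.63 ± 0.15 at DIV4 (adjusted p = 0.0241). From OPC to DIV2 Pfkl rose in control clones (log2 change 0.50 ± 0.15, adjusted p = 0.0142) and fell in null clones (-0.67 ± 0.15, adjusted p = 0.00289). The interaction was -1.17 ± 0.21 (limma adjusted p = 0.0298), each control clone changing upward and each null clone downward. The DIV2 difference was not called without control E8 (adjusted p = 0.0748), null 3F (0.0749) or 7F (0.148), and the DIV4 difference was called only without control D3 (adjusted p = 0.00710; 0.0548 to 0.202 without any other clone). The interaction was called without control D7 (0.0373) or D3 (0.0297) and not without control E8 (0.127), null 3F (0.174), D6 (0.0648) or 7F (0.426). With noncoding transcripts of the gene included it was -0.75 (adjusted p = 0.176). The control rise was not called with noncoding transcripts included (0.14, adjusted p = 0.549) or without E8 (0.0762), nor the null fall without 3F (0.0523).

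**Figure D3:**
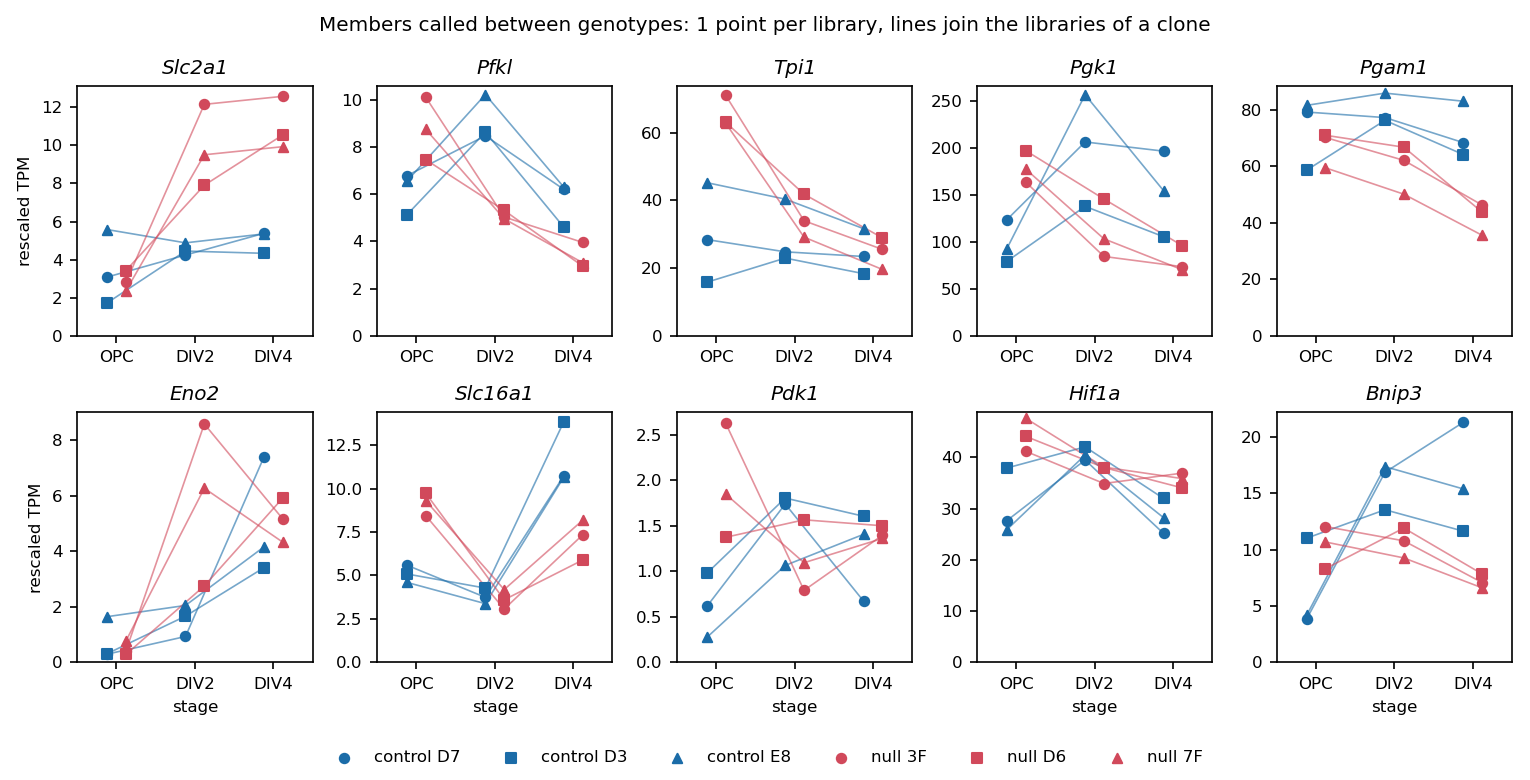
Rescaled TPM by stage of the 10 members called between genotypes at any stage, 1 point per library, with lines joining the libraries of a clone (blue, control; red, null). Null clones lie above control clones for Slc2a1 at DIV2 and DIV4, and the Pfkl lines of the genotypes cross between OPC and DIV2.

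The other phosphofructokinase subunits were not called between genotypes. Pfkm, the muscle-type subunit, ranged from 6.73 (control D7 at DIV4) to 39.1 (control E8 at DIV4), and Pfkp, the platelet type, from 1.75 to 4.49. Aldoa, the aldolase of most tissues, measured 101, 61.8 and 104 rescaled TPM in control OPCs and 111, 110.0 and 113 in null OPCs. At DIV2 its levels were 83.7, 90.1 and 113 in control and 96.3, 135 and 106 in null clones, and at DIV4 they were 79.4, 75.1 and 88.8 in control and 93.6, 93.2 and 94.0 in null clones. Aldoa was not called in any of the 9 comparisons, although null and control groups did not overlap in OPCs or at DIV4. Gpi1, glucose-6-phosphate isomerase, ranged from 24.6 to 47.5 and was not called in the unblocked fit.

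Tpi1, triose phosphate isomerase, had the largest called log2(value + 1) difference in OPCs; by the ratio of means, Pdk1 differed more (3.14-fold). It measured 28.5, 15.8 and 45.3 rescaled TPM in control OPCs and 71.1, 63.1 and 62.9 in null OPCs. Its levels were 24.8, 23.0 and 40.4 in control DIV2, 34.0, 41.8 and 29.2 in null DIV2, 23.4, 18.4 and 31.7 in control DIV4 and 25.5, 28.9 and 19.6 in null DIV4. The genotypes overlapped at DIV2 and DIV4 and did not overlap in OPCs, where the null mean was 2.20-fold higher (log2 change 1.23 ± 0.31, limma adjusted p = 0.0193). Relative to the median of all genes the difference was 1.71 on the deposited TPM and 1.26 with protein-coding scaling. In null clones Tpi1 fell from OPC to DIV2 (-0.90 ± 0.31, adjusted p = 0.0348). Without null 3F, D6 or 7F neither was called (limma adjusted p = 0.0982, 0.0652 and 0.106 for the OPC difference, and 0.206, 0.0873 and 0.191 for the fall). Control D3, the OPC library with the low cell-cycle sum, had the lowest Tpi1, and the part of that state in the result was not tested; without D3 the OPC difference was 0.85 (limma adjusted p = 0.0388).

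Pgk1 makes the first ATP of glycolysis. It measured 124, 79.2 and 92.5 rescaled TPM in control OPCs and 164, 197 and 178 in null OPCs. At DIV2 it was 207, 138 and 257 in control and 84.6, 146 and 103 in null clones, and at DIV4 it was 197, 106 and 155 in control and 73.7, 96.0 and 70.4 in null clones. Null clones lay above control clones in OPCs and below them at DIV4, and the groups overlapped at DIV2. The null OPC mean was 1.83-fold higher (log2 change 0.88 ± 0.27, limma adjusted p = 0.0456). At DIV4 the difference was -0.89, called with clone as a replicate block (limma adjusted p = 0.0490) and not in the same scale's fit without it (0.0676). In control clones Pgk1 rose 2.04-fold from OPC to DIV2 (log2 change 0.998 ± 0.27, adjusted p = 0.00895). In null clones the same step gave -0.72 ± 0.27, called with the block (limma adjusted p = 0.00508) and not in the same scale's fit without it (0.0520). The interaction was -1.72, with an adjusted p of 0.0665 that became 0.0132 with the block, and all clones of a genotype moved the same way. The OPC call was lost without control E8 (limma adjusted p = 0.128), null 3F (0.102), D6 (0.125) or 7F (0.202), with no filter (0.0743), with quantile normalization (0.0878) and with near-identical copies added (0.0581). The control rise was lost without E8 (0.114).

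Pgam1 converts 3-phosphoglycerate to 2-phosphoglycerate. Its levels were 79.2, 58.6 and 81.6 rescaled TPM in control OPCs and 70.2, 71.0 and 59.5 in null OPCs, 77.2, 76.3 and 85.9 in control DIV2 and 62.1, 66.8 and 50.1 in null DIV2, and 68.4, 64.1 and 83.0 in control DIV4 and 46.3, 43.8 and 35.6 in null DIV4. The genotypes overlapped in OPCs, and null clones were lower at DIV2 and DIV4 without overlap. The DIV2 difference was not called (log2 change -0.42 ± 0.16, limma adjusted p = 0.201). The DIV4 mean was 1.72-fold lower in null clones (-0.76 ± 0.16, adjusted p = 0.0136), a call lost without control E8 (0.0617), null 3F (0.0702) or 7F (0.129).

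Eno2 is the enolase best known from neurons and is low in these cells. It measured 0.292, 0.309 and 1.64 rescaled TPM in control OPCs and 0.411, 0.282 and 0.765 in null OPCs. At DIV2 it was 0.928, 1.66 and 2.04 in control and 8.57, 2.75 and 6.26 in null clones, and at DIV4 it was 7.38, 3.402 and 4.15 in control and 5.16, 5.91 and 4.32 in null clones. The genotypes overlapped in OPCs and at DIV4 and did not overlap at DIV2, where the null mean was 3.80-fold higher (log2 change 1.35 ± 0.35, limma adjusted p = 0.0448). Null 3F was the highest and null D6 the lowest of the null libraries at DIV2. The DIV2 difference was called without null D6 (adjusted p = 0.0189) and not without control D7 (0.0717), D3 (0.0823) or E8 (0.0538) or null 3F (0.391) or 7F (0.296). It was also lost with protein-coding scaling (0.0583), a pseudocount of 0.1 (0.106), no filter (0.0935), all transcripts of the gene (0.0959) and only the libraries compared (0.0718). In null clones Eno2 rose from OPC to DIV2 (2.12 ± 0.35, limma adjusted p = 0.000372), a call that held without any of the 6 clones. The summed neuron markers at DIV2 were 105 to 127 in control and 66.6 to 94.0 in null clones. Most of that sum was Map2 and Tubb3 (46.9 and 54.5 in control D7), while Rbfox3 did not exceed 0.0841 at DIV2. The part of these markers in the Eno2 result was not tested.

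Pkm, which makes pyruvate, measured 264, 141 and 212 rescaled TPM in control OPCs and 201, 218 and 209 in null OPCs. Pkm at DIV2 was 124, 131 and 129 in control and 116, 154 and 129 in null clones, and at DIV4 it was 111, 109 and 139 in control and 109, 107 and 110.5 in null clones. Every DIV2 value was below every OPC value of the same genotype. Pkm fell from OPC to DIV2 on the rescaled values in control (log2 change -0.63 ± 0.18, limma adjusted p = 0.0134) and null clones (-0.66 ± 0.18, adjusted p = 0.0121). In control clones the value itself was 2.08 on the deposited TPM and 0.03 with protein-coding scaling. Relative to the median of all genes these were 0.08 and -0.58. The deposited mean went from 49.8 in control OPCs to 197 in control DIV2, while the mean median-of-ratios factor went from 0.248 to 1.54. Adding 1 to low deposited values shrinks the median change of all genes, so 0.08 does not show a rise relative to other genes. With quantile normalization neither fall was called (limma adjusted p = 0.1 in control and 0.189 in null clones). The control call was lost without D7 (adjusted p = 0.137) or E8 (0.0817), and the null call without 3F (0.120), D6 (0.0511) or 7F (0.110). Gapdh fell in null clones over the same step (-0.75 ± 0.24, limma adjusted p = 0.0287; 0.235, 0.0872 and 0.144 without 3F, D6 and 7F) and ranged from 67.7 to 169. Eno1 ranged from 42.2 to 114 and was not called.

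Lactate dehydrogenase interconverts pyruvate and lactate. Ldha, the A subunit, measured 114, 57.4 and 92.2 rescaled TPM in control OPCs and 89.3, 88.9 and 79.9 in null OPCs. At DIV2 it was 37.8, 61.4 and 44.9 in control and 23.3, 34.8 and 30.2 in null clones, and at DIV4 it was 23.2, 71.4 and 72.6 in control and 28.7, 32.2 and 30.2 in null clones. The genotypes did not overlap at DIV2, but no genotype difference was called (log2 change -0.68 ± 0.35 at DIV2, limma adjusted p = 0.366). In null clones Ldha fell 2.92-fold from OPC to DIV2 (-1.53 ± 0.35, limma adjusted p = 0.00361), a call lost without 3F (0.0704). Ldhb, the B subunit, fell 3.46-fold over the same step in null clones (-1.70 ± 0.57, adjusted p = 0.0323; 0.0782, 0.201 and 0.216 without 3F, D6 and 7F). In control clones the Ldhb change was -1.42, called with the replicate block (limma adjusted p = 0.0121) and not in the same scale's fit without it. On the deposited TPM, where the median of all genes rose, Ldhb averaged 10.4 in control OPCs and 23.0 in control DIV2. Control D7 at DIV4, the library with the high oligodendrocyte and low astrocyte sums, held the lowest Ldha (23.2), Ldhb (5.39), Aldoc (11.3) and Pfkm (6.73) of all 18 libraries; the part of its cell makeup in these values was not tested.

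Slc16a1 encodes MCT1, the lactate transporter of oligodendrocytes. Its levels were 5.59, 5.09 and 4.60 rescaled TPM in control OPCs and 8.45, 9.73 and 9.30 in null OPCs. At DIV2 they were 3.74, 4.27 and 3.38 in control and 3.07, 3.60 and 4.19 in null clones, and at DIV4 10.7, 13.9 and 10.7 in control and 7.34, 5.89 and 8.18 in null clones. Null clones were above control clones in OPCs, mixed with them at DIV2, and below them at DIV4. The OPC mean was 1.80-fold higher in null clones (log2 change 0.74 ± 0.14, limma adjusted p = 0.00507), and the call held without any of the 6 clones. Relative to the median of all genes it was 0.71 on the deposited TPM and 0.80 with protein-coding scaling. The DIV4 mean was 1.65-fold lower in null clones (-0.65 ± 0.14, adjusted p = 0.0163), a call lost without null 3F (0.0852), D6 (0.0977) or 7F (0.0739). Slc16a1 fell 2.53-fold from OPC to DIV2 in null clones (-1.14 ± 0.14, limma adjusted p = 5.07e-05). In control clones that step gave -0.35, called with the replicate block (limma adjusted p = 0.0448) and not in the same scale's fit without it. On the deposited TPM, where the median of all genes rose, Slc16a1 averaged 1.29 in control OPCs and 5.87 in control DIV2. From DIV2 to DIV4 it rose 3.09-fold in control (1.41 ± 0.14, adjusted p = 0.000278) and 1.97-fold in null clones (0.81 ± 0.14, adjusted p = 0.00965), and neither rise was called on the deposited TPM (limma adjusted p = 0.0531 and 0.373). The control rise was called without any of the 6 clones, and the null rise was lost without 3F (0.170), D6 (0.137) or 7F (0.264). Neither difference between the genotypes in these steps was called (interaction adjusted p = 0.1005 and 0.812).

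Pyruvate dehydrogenase brings pyruvate into the citric acid cycle. Its subunit gene Pdha1 varied little, with 30.6, 35.9 and 22.6 rescaled TPM in control OPCs, 33.1, 38.7 and 37.5 in null OPCs, 34.9, 29.2 and 32.6 in control DIV2, 31.8, 33.4 and 34.3 in null DIV2, 34.1, 30.3 and 36.3 in control DIV4 and 31.2, 30.2 and 33.4 in null DIV4. It was not called in any comparison. The kinase gene Pdk1, a HIF target, measured 0.612, 0.976 and 0.272 in control OPCs and 2.62, 1.37 and 1.85 in null OPCs. Its levels were 1.74, 1.80 and 1.06 in control DIV2, 0.789, 1.56 and 1.09 in null DIV2, 0.670, 1.603 and 1.40 in control DIV4 and 1.39, 1.498 and 1.36 in null DIV4. The genotypes did not overlap in OPCs and overlapped later. The null OPC mean was 3.14-fold higher (log2 change 0.86 ± 0.22, limma adjusted p = 0.0227). Relative to the median of all genes the log2 change was -0.14 on the deposited TPM and 1.23 with protein-coding scaling. The deposited means were 0.177 in control and 2.15 in null OPCs. Adding 1 shrinks a change between such low values, so -0.14 does not show a fall relative to other genes. The OPC call was lost without control E8 (adjusted p = 0.101), null 3F (0.120) or 7F (0.146). In control clones Pdk1 rose from OPC to DIV2 (0.65 ± 0.22, limma adjusted p = 0.0299). That call was lost without D7 (0.0981), E8 (0.0862) or null 7F (0.0675). Relative to the median of all genes the change was -0.49 on the deposited TPM. The deposited means there were 0.177 and 2.37, where adding 1 shrinks the change in the same way. Pdk2 also rose over this step (1.09 ± 0.32, limma adjusted p = 0.0146) and was called without any of the 6 clones. Pdk3 ranged from 3.77 to 11.3 and was not called, and Pdk4 was listed at 0 in at least 1 library and reached 0.272.

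The Pfkfb enzymes make and break fructose 2,6-bisphosphate, the activator of phosphofructokinase. Pfkfb2 measured 2.93, 4.40 and 2.71 rescaled TPM in control OPCs and 3.83, 3.48 and 4.36 in null OPCs, then 6.12, 6.29 and 6.71 in control DIV2, 6.12, 6.76 and 6.52 in null DIV2, 6.99, 6.69 and 5.42 in control DIV4 and 5.09, 6.07 and 5.63 in null DIV4. All DIV2 values were above all OPC values. Pfkfb2 rose in control (log2 change 0.78 ± 0.14, limma adjusted p = 0.000622) and null clones (0.61 ± 0.14, adjusted p = 0.00389, lost without D6 at 0.0689). Pfkfb4 rose over the same step in both genotypes (0.76 and 0.78 ± 0.16, adjusted p = 0.00215 and 0.00219), and both calls held without any of the 6 clones. The control rise of Pfkfb4 was not called with only the libraries compared (0.0573). Relative to the median of all genes it was -0.19 on the deposited TPM and 1.05 with protein-coding scaling. The deposited means were 0.256 in control OPCs and 3.34 in control DIV2. Adding 1 shrinks a change between such low values, so -0.19 does not show a fall relative to other genes. Pfkfb3, an isoform that acts mainly as a kinase, rose in null clones (0.92 ± 0.24, limma adjusted p = 0.00827; 0.0681, 0.0576 and 0.0841 without 3F, D6 and 7F). In control clones Pfkfb3 gave 0.56 and 0.97 over the consecutive steps. Both were called with the replicate block (limma adjusted p = 0.0209 and 0.0364) and not in the same scale's fit without it.

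Hif1a RNA was among the more abundant regulators; its protein is set mainly by degradation, which RNA does not show. Its levels were 27.6, 37.9 and 25.8 rescaled TPM in control OPCs and 41.2, 44.1 and 47.6 in null OPCs, 39.5, 42.0 and 40.4 in control DIV2 and 34.9, 38.0 and 38.1 in null DIV2, and 25.2, 32.0 and 28.2 in control DIV4 and 36.9, 34.0 and 35.8 in null DIV4. The genotypes did not overlap at any stage, with null clones above control clones in OPCs and at DIV4 and below them at DIV2. Only the OPC difference was called, a mean 1.45-fold higher in null clones (log2 change 0.54 ± 0.14, limma adjusted p = 0.0193; 0.700 at DIV2 and 0.186 at DIV4). It was lost without control E8 (0.115), null 3F (0.0605), D6 (0.0807) or 7F (0.177) and with quantile normalization (0.0844). From OPC to DIV2 every control clone went up and every null clone down. The control rise was called (0.42 ± 0.14, adjusted p = 0.0225; lost without D7, E8 and null 7F, with 0.0913, 0.174 and 0.0550), the null change was not (-0.25, 0.172), and nor was the interaction (-0.68, adjusted p = 0.127).

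Bnip3 measured 3.83, 11.02 and 4.16 rescaled TPM in control OPCs and 12.1, 8.31 and 10.7 in null OPCs. By DIV2 it was 16.9, 13.5 and 17.4 in control and 10.8, 11.9 and 9.27 in null clones, and at DIV4 it was 21.3, 11.6 and 15.4 in control and 7.08, 7.84 and 6.61 in null clones. The genotypes overlapped in OPCs, where control D3 stood high, and did not overlap at DIV2 and DIV4. The DIV4 mean was 2.25-fold lower in null clones (log2 change -1.03 ± 0.28, limma adjusted p = 0.0460), a call not held with clone as a replicate block (0.0589), a pseudocount of 0.1 (0.0553) or no filter (0.0768). It was called without control D3 (0.00126) and not without control D7 (0.0975), E8 (0.0994), null 3F (0.209), D6 (0.105) or 7F (0.267). In control clones Bnip3 rose 2.51-fold from OPC to DIV2 (1.33 ± 0.28, adjusted p = 0.00198), which held without any of the 6 clones.

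Vegfa was low at the earlier stages and rose late. It ranged from 0.306 to 2.28 rescaled TPM in OPCs and from 1.01 to 1.31 at DIV2, then from 3.83 to 8.05 in control DIV4 and from 8.37 to 14.8 in null DIV4. The rise from DIV2 to DIV4 was 4.93-fold in control (log2 change 1.62 ± 0.29, limma adjusted p = 0.0356) and 10.9-fold in null clones (2.59 ± 0.29, adjusted p = 0.000382). All DIV4 values were above all DIV2 values, and the genotypes did not overlap at DIV4, where the difference was not called (0.88 ± 0.29, adjusted p = 0.0900). The control rise was called without D7 (0.0254) and not without D3 (0.0690), E8 (0.116), null 3F (0.0725), D6 (0.0746) or 7F (0.191), and the null rise was lost without 7F (0.0750). The control rise was also lost with protein-coding scaling (0.0722), a pseudocount of 0.1 (0.0865), no filter (0.0696) and only the libraries compared (0.19). Egln3 reached 0.886 rescaled TPM and was listed at 0 in control D7 and E8 OPCs.

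Isozyme shares within a step are given as a description, with no test. Aldoc, the brain aldolase found in astrocytes, held 16.3% to 31.1% of summed Aldoa and Aldoc in control DIV2 and 20.4% to 27.8% in null DIV2, then 49.1% to 64.5% in null DIV4. In control DIV4 its share was 12.5% in D7, 48.0% in D3 and 60.4% in E8. The astrocyte gene Gfap moved with it there, at 0.179, 100.7 and 234 rescaled TPM in D7, D3 and E8, and its part was not tested. The Pfkl share of the 3 phosphofructokinase subunits was 36.6% ± 4.46 (SD, n = 3) in control DIV2 and 25.7% ± 1.19 (SD, n = 3) in null DIV2, and null OPCs (32.3% ± 5.42, SD, n = 3) were above control OPCs (24.1% ± 3.57, SD, n = 3). The Pfkl shares did not overlap between genotypes in OPCs or at DIV2 and overlapped at DIV4. Ldhb held 17.0% to 50.2% of summed Ldha and Ldhb in control OPCs and 19.1% to 26.2% in null OPCs. Eno2 was a minor part of enolase, at 0.303% to 1.42% of summed Eno1 and Eno2 in OPC libraries, 1.87% to 3.35% in control DIV2 and 3.75% to 11.3% in null DIV2. Near-identical copies of Eno1 are not in this sum. They held up to 50.4% of the TPM of Eno1 and its copies in a library, so the Eno2 shares are uncertain.

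**Figure D4:**
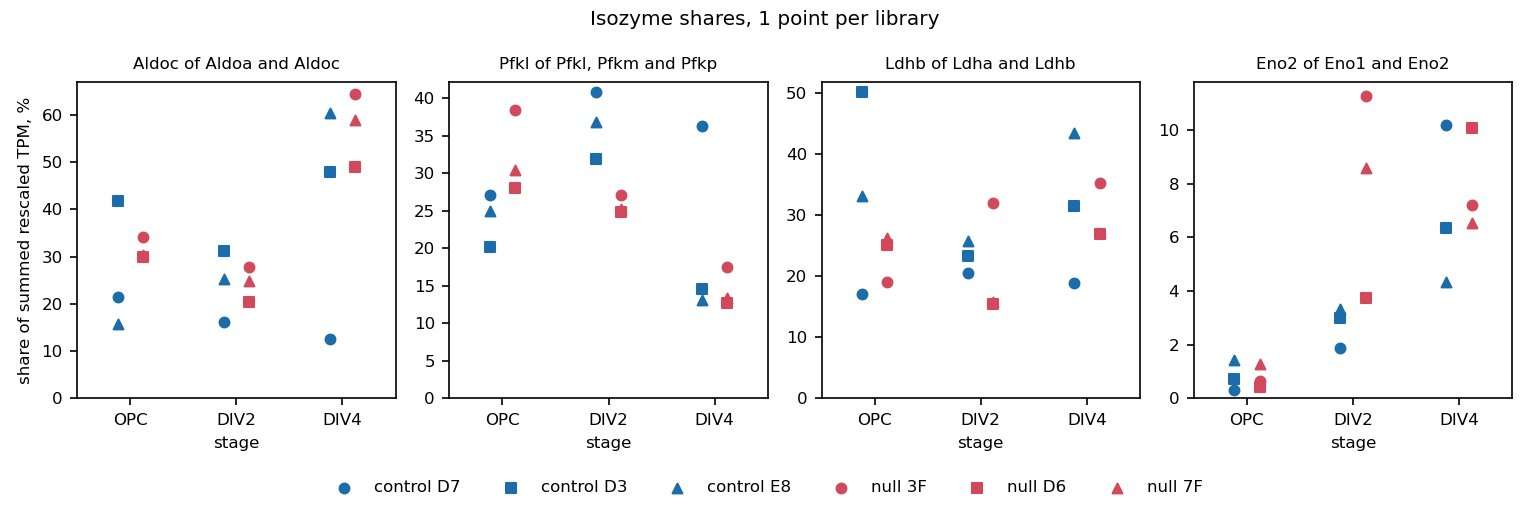
Share of 1 isozyme in the summed rescaled TPM of its step (percent), by stage, 1 point per library (blue, control; red, null). The Aldoc share of control D7 at DIV4 (12.5%) lies apart from the other 5 DIV4 libraries, and the Pfkl shares at DIV2 do not overlap between genotypes.

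Other genes of these pathways were counted from fixed lists chosen with earlier results known. Over all genes tested, 5.92% were called higher and 5.95% lower in null OPCs. The shares were 1.93% and 1.25% at DIV2 and 3.14% and 2.35% at DIV4. With so few genes per list, the counts are not read as results about the lists. Of 8 tested further glycolysis genes, 1 was higher in null OPCs (Bpgm, which makes 2,3-bisphosphoglycerate, log2 change 0.88, limma adjusted p = 0.0382), none was called at DIV2, and 1 was higher at DIV4 (G6pc3, a glucose-6-phosphatase, 0.75, adjusted p = 0.0150). Of 10 genes of pyruvate entry, Pdhx (a pyruvate dehydrogenase component) was lower in null OPCs (-0.53, limma adjusted p = 0.0344) and Mpc1 was lower at DIV4 (-0.84, adjusted p = 0.0426). Mpc1 encodes a subunit of the mitochondrial pyruvate carrier, and its levels were 144, 94.8 and 145 rescaled TPM in control DIV4 and 60.1, 90.8 and 61.8 in null DIV4. Of 12 pentose phosphate and glycogen genes, 1 was higher and 2 were lower in null OPCs, among them Ugp2 (0.66, limma adjusted p = 0.0433) and Pgls (-0.51, adjusted p = 0.0271), and none was called at DIV2 or DIV4. Of 7 HIF pathway genes, 1 was lower in null OPCs: Egln1, the main oxygen sensor of the HIF pathway (-0.55, limma adjusted p = 0.0214). Of 17 other HIF targets, 1 was higher and 1 lower in null OPCs, the lower one being Bhlhe40 (-1.04, adjusted p = 0.0432), 1 was higher and 1 lower at DIV2, the lower one being P4ha1 (a collagen prolyl hydroxylase, -0.57, adjusted p = 0.0385), and 1 was higher at DIV4. The higher gene was Plin2 each time, a lipid droplet protein gene outside the naming rule and named after its values were seen (2.01, 2.33 and 2.47, limma adjusted p = 0.000903, 0.000259 and 0.000172). From OPC to DIV2, 5 of these 17 rose and 2 fell in control clones, and 5 rose and 3 fell in null clones, beside shares over all genes of 21.3% and 18.7% in control and 17.7% and 15.6% in null clones.

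Some members share sequence with other genes, so the authors' quantification could split their reads. At least 10% of the 31-base words of 14 members also occur in transcripts of other genes: Gpi1, Pfkp, Aldoa, Tpi1, Gapdh, Pgk1, Pgam1, Eno1, Pkm, Ldha, Ldhb, Pdha1, Pfkfb2 and Bnip3. Their values are reported as uncertain. The share was largest for Bnip3 (74.7%), Pgk1 (68.3%) and Gapdh (62.6%). Near-identical copies in the table held little TPM beside most of these genes, with a mean share over libraries of 42.1% for Eno1 and 10.1% for Gapdh, and a mean of at most 0.681% for the other members with a copy listed. Among the called members, Slc2a1, Pfkl, Eno2, Slc16a1, Pdk1 and Hif1a shared less than 10%.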

How the data were processed

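Total RNA of 18 libraries (3 clones for each of 2 genotypes and 3 stages) was sequenced after ribosomal RNA removal with a stranded kit, per the labels' protocols. The authors deposited 1 table of TPM (library-scaled abundance corrected for transcript length) for 93666 transcripts. The submitters' processing notes name STAR, Picard and the mouse build mm10; the quantifier and annotation are not given in the sources used here. For each gene, the TPM of its protein-coding transcripts was summed by gene name, after 25 names that a spreadsheet had turned into dates (150 rows) were restored. Of the transcript identifiers, 96.5% were found in the GRCm38 annotation used for positions and sequence.

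The sums were rescaled by median-of-ratios factors from 12320 genes above 0 in all libraries. Genes with a mean of at least 1 rescaled TPM were tested on log2(value + 1), a scale that understates changes of low genes. limma 3.58.1 in R 4.3.3 fitted 1 mean per group over the 18 libraries with a trended variance; p-values were adjusted by Benjamini-Hochberg within each of 9 comparisons and called under 0.05. Fold values are ratios of mean rescaled TPM. The fit was tested on simulated data.

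The clones pair the stages: deviations from group means correlated at 0.285 on average within a clone (0.0258 to 0.653) and at -0.14 between clones of a genotype. Deviations of the clones of a group cancel out by construction, which largely sets the negative value between clones. A fit with clone as a replicate block was an alternative. It used a shared within-clone correlation for the genotype comparisons and clone as a fixed term for the stage steps and interactions. Other alternatives were the deposited TPM, protein-coding transcripts summed to 1000000, a pseudocount of 0.1, no filter, all transcripts of a gene, only the libraries compared and leaving out each clone. Quantile normalization and the addition of near-identical copies were chosen after seeing the data. The members and gene lists were chosen with earlier results of these data known. Values in every library are given for members called between genotypes or in an interaction and for the most abundant member of each role. From each pathway list at most 2 called genes per genotype comparison are named, those with the largest change among genes with a mean of at least 5 rescaled TPM.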

Additional observations from a re-analysis of the deposited data

Results flagged for a closer look

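Pfkl changed in opposite directions in the genotypes between OPC and DIV2, and the difference passed the interaction test (-1.17 on the log2 scale, limma adjusted p = 0.0298). The change was 0.28, 0.65 and 0.57 in control D7, D3 and E8 and -0.88, -0.42 and -0.71 in null 3F, D6 and 7F. The call was lost without control E8 (adjusted p = 0.127), null 3F (0.174), D6 (0.0648) or 7F (0.426).

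Egln3, an oxygen-sensing hydroxylase below the level needed for testing, moved up from DIV2 to DIV4 in all 3 control clones (0.21, 0.37 and 0.18 on the log2(value + 1) scale) and down in all 3 null clones (-0.13, -0.28 and -0.28). The mean difference was -0.49, and it was not tested.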

How the results depend on the processing

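On the deposited TPM, 24 members (9389 genes) were called in OPCs, 1 (213) at DIV2, 0 (293) at DIV4, 29 (9638) for DIV2 against OPC in control and 6 in null clones, 1 for DIV4 against DIV2 in control and 1 (70) in null clones, and 23 (8743) in the interaction of the first step. With protein-coding transcripts summed to 1000000 these were 13 (2796) in OPCs, 1 at DIV4, 18 (6392) for the first control step, 1 for the second and 2 (161) in the first interaction. On these scales the values of Hk1 (1.80 and 0.04345 on the log2 scale) and Pkm (2.08 and 0.0346) in the first control step changed sign while the median of all genes was 1.99 and 0.62; relative to it Hk1 was -0.19 and -0.57 and Pkm 0.08 and -0.58. With only the libraries compared, counts were 0 (93) in OPCs, 619 genes at DIV2, 1 (178) at DIV4, 5 (2357) and 0 (0) for the control steps, 9 (2275) for the second null step and 1 gene in the second interaction. With clone as a replicate block, 62 genes were called for the second control step, 5 members (612 genes) for the second null step and 2 (95) in the first interaction; of 40 called member results, 39 kept their call and Bnip3 at DIV4 lost it (limma adjusted p = 0.0589). A pseudocount of 0.1 gave 1 member at DIV2, 1 (16) for the second control step and 18 genes in the first interaction. No filter gave 1 member at DIV2, 1 for the second control step, and 84 and 11 genes in the interactions. All transcripts of a gene gave 1 member at DIV2 and 0 in the first interaction. Quantile normalization gave 3 members in OPCs. The cause of the other moves was not tested. Where a count of members stands without a number of genes, it is not read as a result about the members. Leaving out 1 clone gave 1 to 11 members (179 to 2189 genes) in OPCs, 0 to 3 (92 to 702) at DIV2, 0 to 8 (84 to 1005) at DIV4, 5 to 14 (2640 to 4492) and 1 to 5 (3 to 357) for the control steps, 5 to 15 (1589 to 4076) and 0 to 5 (3 to 925) for the null steps, and 0 to 6 (2 to 193) and 0 (0 to 21) in the interactions. Of the 40 called member results, 38 kept their call without control D3, 33 without D7 and 24 without E8, and 18, 23 and 17 without null 3F, D6 and 7F. With 3 clones per group and no depth in TPM, low members such as Pdk1 and Eno2 rest on few libraries near 1 rescaled TPM.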
